A study of Arabidopsis thaliana with 12 samples.

Results

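The comparison asks whether the same double mutation changed gene expression differently in the 2 tissues of the mature Arabidopsis thaliana seed, the embryo and the surrounding coat. All 12 of 12 libraries of the series enter it. For each gene the mutant effect (mutant against Col-0) in the seed coat was set against the mutant effect in the embryo, with the embryo and seed coat that share a genotype and a replicate number treated as 1 seed lot. A positive difference therefore means that the mutant effect was more positive in the seed coat, and a negative one that it was more positive in the embryo.

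The groups were Col-0 embryo, Col-0 seed coat, mutant embryo and mutant seed coat, with 3 libraries each. Col-0 is the wild-type accession, and the mutant is the double mutant Atsdr4l-5 dig2, one line carrying lesions in AtSDR4L and in DIG2. Seeds were collected mature, about 18 days after pollination in long days, kept dry for 2 days and then imbibed for 1 to 2 hours before the embryo was dissected out. What is called seed coat here is the remainder, which the labels describe as endosperm together with the seed coat, so that living endosperm and the dead outer coat layers were measured as 1 tissue. All groups share the same storage and imbibition, and no group was dry or unimbibed. Because each library is bulk tissue, fewer cells expressing a gene and less of its RNA per cell cannot be told apart in any of the values below.

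AtSDR4L and DIG2 belong to a small plant family of proteins linked to transcriptional repression downstream of abscisic acid, the hormone that drives seed maturation and keeps mature seeds dormant. During maturation the embryo fills with storage proteins and oil and acquires desiccation tolerance through late embryogenesis abundant (LEA) proteins and heat shock proteins. In Arabidopsis the endosperm persists as a thin living layer that stores some of the same reserves, produces hormones and acts on the embryo's decision to germinate.

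Each library held between 10301817 and 17619031 reads assigned to genes. Values are given as CPM, gene reads relative to a library size scaled by the trimmed mean of M values (TMM), and are not corrected for gene length, so levels are compared between libraries and not between genes. DIG2 (AT5G50360) held 76.3, 129 and 194 CPM in Col-0 embryo replicates 1 to 3 and 144, 115 and 144 CPM in mutant embryo. Seed coat libraries held 103, 179.7 and 199 CPM in Col-0 and 165, 106 and 155 CPM in the mutant. The groups overlapped in both tissues, and the difference between tissues was -0.25 ± 0.17 (log2, SE from the 6 seed lots; adjusted p = 0.227 by edgeR's quasi-likelihood test with Benjamini-Hochberg adjustment), so a count over the whole gene does not show the lesion. The sources used here do not pair AtSDR4L with a locus, and no value is assigned to it. Of the 6 measured genes in the list of DIG2 and its relatives, 5 were higher in the mutant in each tissue, and DIG2 itself was not among the 5. Of all genes, 25.4% were higher in mutant embryo and 24.8% in mutant seed coat. Among the 5, AT3G27250 lay near the floor, with 0 reads over the Col-0 libraries of each tissue, 53 over mutant embryo and only 4 over mutant seed coat. In the difference 0 of the 6 were called by edgeR, against 15.9% of all genes, 0 had an unadjusted p under 0.05, and limma called 1 negative.

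The dissection was visible in some tissue markers but not in every marker list. EPR1 (AT2G27380), an extensin-like gene of the endosperm, held 134897, 163467 and 164675 CPM in Col-0 seed coat and 202218, 184338 and 192443 CPM in mutant seed coat. In the embryo it held 172, 196 and 179.9 CPM in Col-0 and 189, 118 and 229.6 CPM in the mutant. Embryo and seed coat libraries thus lay far apart for this gene in both genotypes, and its mutant effect did not pass the test of a difference between tissues (0.40 ± 0.27, adjusted p = 0.149). Of 12 listed endosperm markers only 2 were measurable, and EPR1 made up nearly all of their sum. That sum ran from 134899 to 164675 CPM in Col-0 seed coat and from 173 to 198 CPM in Col-0 embryo. The view of the endosperm therefore rests on EPR1 alone. CNA, a homeodomain factor of the shoot meristem, had 158 reads over the Col-0 embryo libraries, 20 over the mutant embryo libraries and 0 in all 6 seed coat libraries. Over 14 measured embryo markers the summed level ran from 122.6 to 126.2 CPM in the embryo of Col-0, 93.8 to 103.3 CPM in mutant embryo, 64.2 to 72.1 CPM in Col-0 seed coat and 45.8 to 53.4 CPM in mutant seed coat. For the outer seed coat, 9 of 14 markers were measurable, and their sum ran from 261 to 337 CPM in the embryo of Col-0, 153 to 176 CPM in mutant embryo, 249.6 to 299.8 CPM in Col-0 seed coat and 212 to 323 CPM in mutant seed coat. The seed coat marker list therefore did not separate the tissues in Col-0, and its sum was lowest in mutant embryo; what this carries into the results below was not tested.

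Of 16238 genes tested, 2579 (15.9%) had a mutant effect that differed between tissues at an adjusted p under 0.05. The difference was positive for 835 genes (5.14%) and negative for 1744 (10.7%), so 32.4% of the calls were positive. That split depends on the scaling, the filter and the seed lots. The positive share was 43.5% when library sizes were total reads only and 43.2% with no low count filter. Leaving out 1 seed lot at a time gave from 30.9% (without Col-0 replicate 3) to 41.5% (without Col-0 replicate 1). At least a 2-fold difference was reached by 776 of the called genes, 372 positive and 404 negative, and the median size among the calls was 0.72 (log2). The median difference over all genes tested was -0.04. The seed coat to embryo ratios of the 3 mutant lots and the 3 Col-0 lots did not overlap for 2509 of the 2579 called genes, against 34.6% of all genes tested.

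Within single tissues the mutant effect was broad, with 25.4% of genes higher and 21.4% lower in mutant embryo (46.9% called) and 24.8% higher and 23.5% lower in mutant seed coat (48.4% called). Among the genes whose effect differed, 92 had opposite effects that were each called, 563 had a called effect in the embryo alone and 763 in the seed coat alone. A further 385 moved the same way in both tissues but more in the embryo, 523 moved the same way but more in the seed coat, and 253 passed in neither tissue on its own. The 92 opposite genes are 0.567% of all genes tested. Total reads as library size moved the median mutant effect over all genes to -0.35 for embryo and -0.30 for seed coat. Under that scaling, with effects read against 0 and not against the shifted median, 78 of the 92 genes kept opposite signs and 25 kept opposite calls in both tissues. Opposite calls in both tissues were also lost elsewhere, while all 92 kept opposite signs. With 1 seed lot left out, 41 (without mutant replicate 3) to 60 (without mutant replicate 2) of the 92 kept them. By DESeq2 73 did, and with no low count filter 59.

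**Figure D1:**
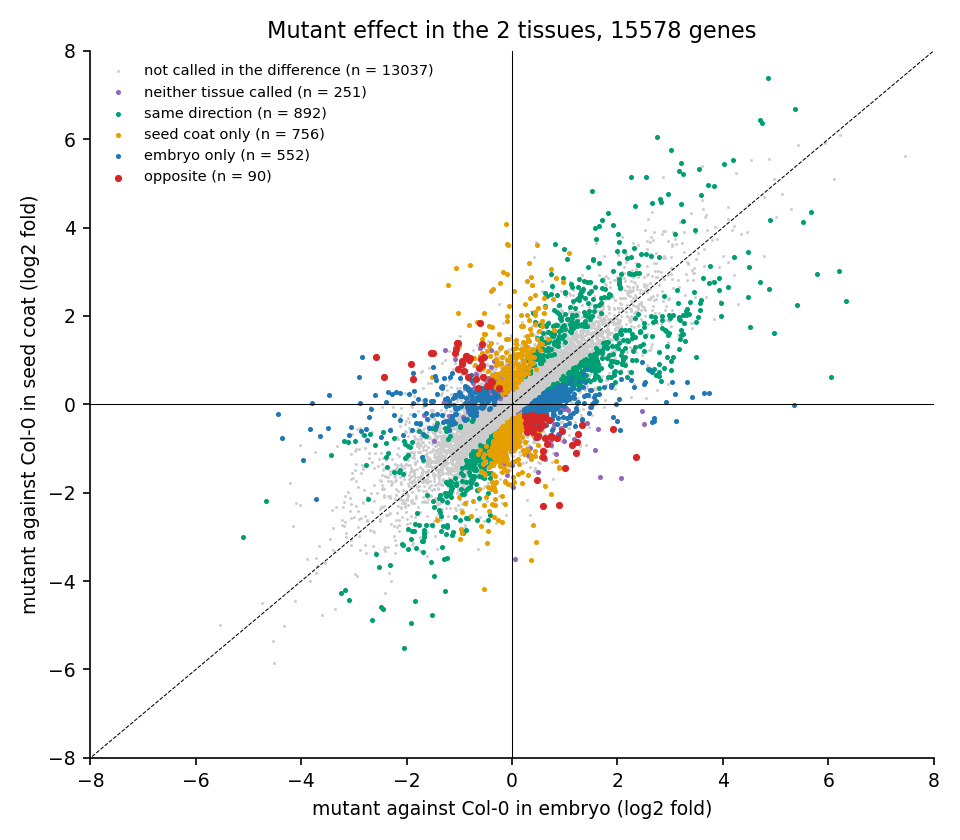
Mutant effect in the embryo (horizontal axis, log2 fold) against mutant effect in the seed coat (vertical axis, log2 fold) for the 15578 genes with more than 3 reads in every group. Each point is a gene, coloured by class where its difference between tissues was called, the dashed line marks equal effects, and the 90 plotted opposite genes lie in the upper left and lower right.

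Opposite effects ran in both arrangements. In 34 genes the mutant was lower in embryo and higher in seed coat, with medians of -0.85 and 0.95 (log2), and in 58 genes it was higher in embryo and lower in seed coat, with medians of 0.46 and -0.52. XTH11 (AT3G48580), a xyloglucan endotransglucosylase/hydrolase of the kind that remodels cell wall xyloglucan, had one of the widest separations. In the embryo it held 4.90, 4.14 and 5.13 CPM in Col-0 and 0.784, 0.399 and 1.12 CPM in the mutant. Levels in seed coat were 75.4, 72.6 and 79.1 CPM in Col-0 and 151, 151 and 176 CPM in the mutant. Neither tissue's groups overlapped, the mutant being below Col-0 in every embryo library and above it in every seed coat library. Separation in at least 1 tissue was part of the rule by which this and the other genes named by class were picked, so it is not further support. The embryo effect was -2.59 and the seed coat effect 1.07, a difference of 3.66 ± 0.31 (adjusted p = 2.01e-08).

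OPT6 (AT4G27730), an oligopeptide transporter, had 47.7, 22.1 and 25.6 CPM in Col-0 embryo, against 7.84, 12.6 and 13.3 CPM in mutant embryo. Its seed coat levels were 18.3, 7.47 and 8.48 CPM in Col-0 and 27.4, 24.4 and 25.9 CPM in the mutant. The genotypes did not overlap in either tissue, and Col-0 replicate 1 was the highest Col-0 library in both. The difference was 2.72 ± 0.28 (adjusted p = 1.98e-07), from an embryo effect of -1.51 and a seed coat effect of 1.16, of which the latter was not called with total reads as library size (0.85, adjusted p = 0.0789), without Col-0 replicate 2 (0.93, adjusted p = 0.0525) or without Col-0 replicate 3 (1.00, adjusted p = 0.0665). BGLU44 (AT3G18080), a beta-glucosidase, had 32.2, 31.6 and 24.6 CPM in the embryo of Col-0, 20.1, 19.0 and 18.9 CPM in mutant embryo, 2.80, 3.77 and 2.62 CPM in Col-0 seed coat and 10.02, 9.72 and 13.5 CPM in mutant seed coat. No groups overlapped within a tissue, and the 2 tissues were closer to each other in the mutant than in Col-0. Its difference was 2.47 ± 0.21 (adjusted p = 7.07e-07).

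The reverse arrangement was led by BRU6 (AT4G37390), a member of the GH3 family of enzymes that join auxin to amino acids. It held 18.24, 19.2 and 22.03 CPM in Col-0 embryo, against 33.0, 28.5 and 27.3 CPM in mutant embryo. Its seed coat levels were 254, 222 and 303 CPM in Col-0 against 43.3, 61.0 and 52.8 CPM in the mutant. The mutant was thus higher in every embryo library and lower in every seed coat library, with effects of 0.58 and -2.31 and a difference of -2.89 ± 0.23 (adjusted p = 9.77e-09). With total reads as library size the embryo effect kept its sign but was not called (0.23, adjusted p = 0.227).

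TGA10 (AT5G06839), a bZIP transcription factor, had 42.2, 48.5 and 45.7 CPM in the embryo of Col-0, 79.9, 72.6 and 74.1 CPM in mutant embryo, 262, 284 and 265 CPM in Col-0 seed coat and 168, 186 and 139.9 CPM in mutant seed coat. The 4 groups did not overlap, and the mutant narrowed the gap between tissues from both sides, a difference of -1.46 ± 0.13 (adjusted p = 9.61e-07). Fes1A (AT3G09350), a nucleotide exchange factor of cytosolic Hsp70 chaperones, had 99.5, 138 and 112 CPM in the embryo of Col-0, 158, 162 and 163 CPM in mutant embryo, between 187 and 238 CPM in the 3 Col-0 seed coat libraries and 118, 117 and 139 CPM in mutant seed coat. In Col-0 the seed coat was the higher tissue in every lot, and in the mutant the embryo was. The difference was -1.22 ± 0.11 (adjusted p = 3.25e-06), while its embryo effect was not called with total reads as library size (0.12, adjusted p = 0.397) or without Col-0 replicate 1 (0.33, adjusted p = 0.0762).

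CYP71B10 (AT5G57260), a cytochrome P450, had 77.6, 78.4 and 76.1 CPM in the embryo of Col-0, 129, 112 and 135 CPM in mutant embryo, 175, 191 and 189 CPM in Col-0 seed coat and 157, 130.3 and 148 CPM in mutant seed coat. Its groups did not overlap within either tissue, and the difference was -1.05 ± 0.06 (adjusted p = 5.79e-06). UGT85A2 (AT1G22360), a UDP-glycosyltransferase, had 14.2, 9.26 and 10.5 CPM in the embryo of Col-0, 22.9, 19.3 and 18.8 CPM in mutant embryo, 47.9, 24.9 and 39.4 CPM in Col-0 seed coat and 21.2, 22.3 and 23.0 CPM in mutant seed coat. Its groups were separate too, although Col-0 seed coat replicate 2 lay close to the mutant, and the difference was -1.58 ± 0.19 (adjusted p = 6.16e-06). Its embryo effect was not called with total reads as library size (0.48, adjusted p = 0.102).

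**Figure D2:**
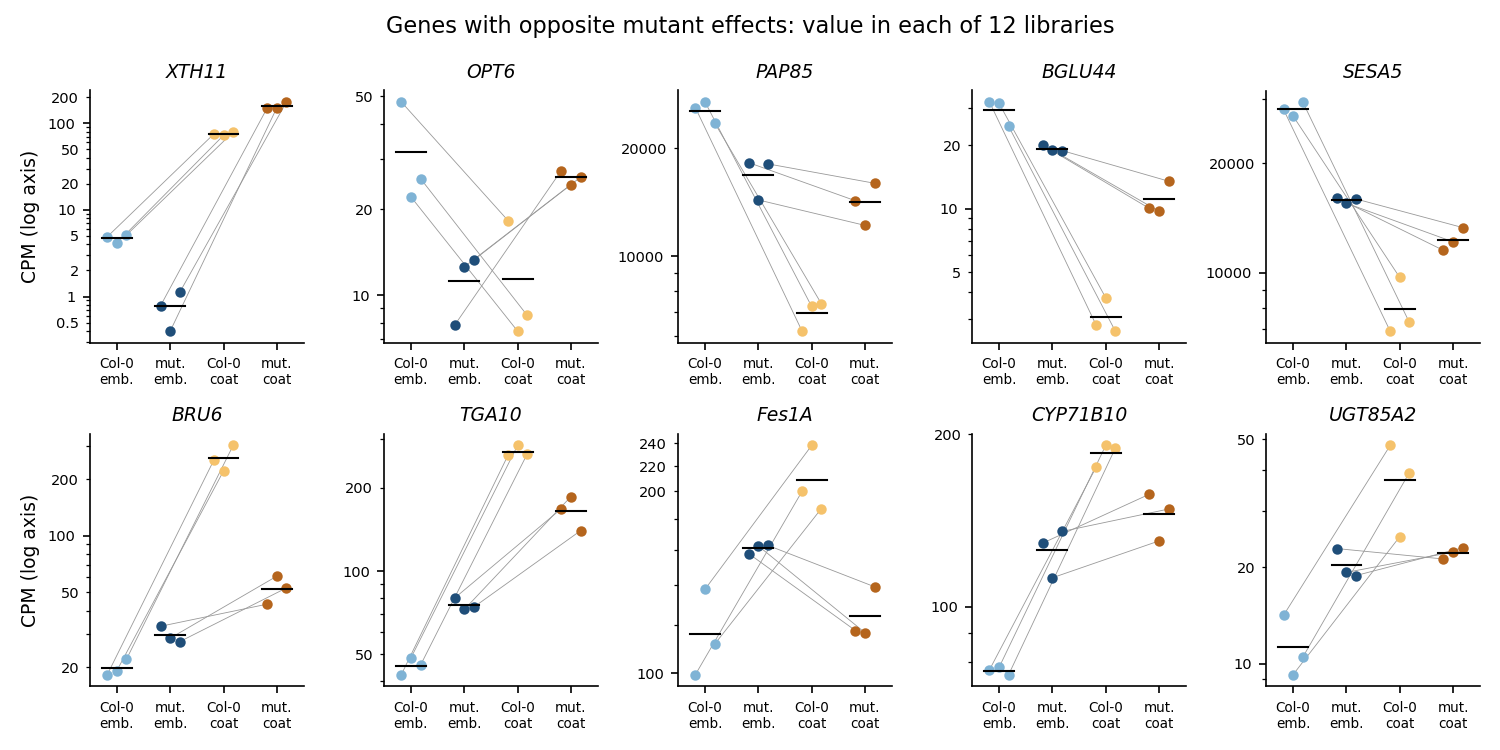
CPM on a log axis in each of the 12 libraries for the 10 named genes with opposite mutant effects, with libraries on the horizontal axis grouped by genotype and tissue. Points are libraries, grey lines join the embryo and seed coat of 1 seed lot, and black bars are group means. In the upper row the mutant lies below Col-0 in embryo and above it in seed coat, as for XTH11, and in the lower row the arrangement is the reverse, as for BRU6.

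Seed storage protein genes were prominent among positive differences. All 13 listed members were tested, and 8 were called positive and 1 negative, against 5.14% and 10.7% of all genes, with a median difference of 0.59 against -0.04 for all genes. In the seed coat 11 members were higher in the mutant and 1 lower, and in the embryo 7 were higher and 3 lower. In the embryo the 13 transcripts summed to between 79978 and 84912 CPM in Col-0 and between 61222 and 70322 CPM in the mutant. In the seed coat their sum ran from 20326 to 28626 CPM in Col-0 and from 48202 to 57619 CPM in the mutant. The summed storage transcripts were thus lower in the mutant embryo and higher in the mutant seed coat, with no overlap between genotypes in either tissue. Without the seed lot block, 3 members were called positive and 0 negative.

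Storage proteins were also among the opposite genes. PAP85 (AT3G22640), a vicilin-like 7S globulin, held 25978, 26958 and 23585 CPM in the embryo of Col-0, 18261, 14373 and 18117 CPM in mutant embryo, 6192, 7252 and 7393 CPM in Col-0 seed coat and 14299, 12206 and 15996 CPM in mutant seed coat. Mutant libraries were the lower ones in embryo and the higher ones in seed coat without exception among the 12, with effects of -0.59 and 1.03 and a difference of 1.62 ± 0.13 (adjusted p = 5.25e-07). The embryo effect was not called without Col-0 replicate 2 (-0.55, adjusted p = 0.0678). SESA5 (AT5G54740), a 2S albumin, held 28113, 26955 and 29477 CPM in Col-0 embryo, against 16080.3, 15533 and 15958 CPM in mutant embryo. Its seed coat levels were 6920.2, 9713 and 7311 CPM in Col-0 and 11528, 12169.6 and 13320.1 CPM in the mutant. Again no groups overlapped, and the effects of -0.83 and 0.63 gave a difference of 1.47 ± 0.19 (adjusted p = 6.11e-06).

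The 12S globulin CRA1 (AT5G44120) behaved otherwise in the embryo, where Col-0 held 14052, 15469.9 and 11904 CPM and the mutant 14514, 11417 and 12237 CPM. Its seed coat libraries held 3197, 4159 and 3289.8 CPM in Col-0 and 8499, 6769 and 8861 CPM in the mutant. The genotypes overlapped in embryo and were separate in seed coat, with a difference of 1.3 ± 0.13 (adjusted p = 4.91e-06). The related globulin CRU2 differed by 1.24 through its embryo effect of -1.25, with a seed coat effect of -0.05, and CRU3 differed by 1.01 through its seed coat effect of 0.85. SESA3, a 2S albumin that was higher in both mutant tissues (1.54 in embryo and 2.39 in seed coat), differed by 0.89. SESA4 was the 1 member with a called negative difference (-0.93), and SESA1 and SESA2 were not called. SESA1 to SESA4 are near-identical tandem copies. Reads that match more than 1 copy count as multimapping and are left out, so their values are uncertain.

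The upstream sequences of PAP85, SESA5 and CRA1 are shown because storage protein genes are the list with the highest share of positive differences among those used here and carry the RY element (CATGCA, searched on both strands, overlaps counted), which B3 transcription factors of seed maturation such as ABI3 and FUS3 are known to bind. Each run is the 250 bases before the annotated start of the gene, 5′ to 3′ on the gene's strand, from the RefSeq annotation of the TAIR10.1 assembly, with RY letters in capitals. PAP85 lies on the minus strand at chr3:8013942-8014191, SESA5 on the minus strand at chr5:22239188-22239437 and CRA1 on the minus strand at chr5:17758337-17758586.
PAP85: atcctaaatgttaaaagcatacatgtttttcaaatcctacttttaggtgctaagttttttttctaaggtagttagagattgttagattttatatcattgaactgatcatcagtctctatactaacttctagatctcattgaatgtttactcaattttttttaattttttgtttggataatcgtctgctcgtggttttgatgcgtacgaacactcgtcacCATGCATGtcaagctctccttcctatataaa
SESA5: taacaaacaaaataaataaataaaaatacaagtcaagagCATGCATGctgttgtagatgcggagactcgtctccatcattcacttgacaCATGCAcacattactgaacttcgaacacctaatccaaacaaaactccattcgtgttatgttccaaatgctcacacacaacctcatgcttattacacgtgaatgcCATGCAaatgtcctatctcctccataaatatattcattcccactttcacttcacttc
CRA1: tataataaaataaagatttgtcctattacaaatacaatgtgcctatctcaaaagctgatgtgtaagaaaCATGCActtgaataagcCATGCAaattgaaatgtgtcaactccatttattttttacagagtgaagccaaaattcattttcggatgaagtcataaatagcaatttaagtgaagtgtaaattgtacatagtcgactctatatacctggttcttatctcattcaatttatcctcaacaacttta
The element was found in 11 of 13 storage promoters (84.6%), against 8.43% of all 27443 promoters and 7.0% of those of tested genes. It was found equally in oil body genes, in 11 of 12 (91.7%), a list whose differences were mixed in sign. The match describes these letters in this window and does not separate the genes whose response differed between tissues.

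Among the 563 genes with a called effect in the embryo alone, 380 were higher in the mutant (median embryo effect 0.64, seed coat 0.02) and 183 lower (-1.07 and 0.05). NSP2 (AT2G33070), a nitrile specifier protein that directs the breakdown of glucosinolates, had the most negative difference among the named genes. In the embryo it held 19.5, 27.2 and 37.8 CPM in Col-0 and 1189, 1013 and 1258 CPM in the mutant. Seed coat libraries held 8993, 12632 and 12998 CPM in Col-0 and 12628, 11036 and 10451 CPM in the mutant. The seed coat groups overlapped and the embryo groups were far apart, with effects of -0.02 and 5.36 and a difference of -5.40 ± 0.19 (adjusted p = 4.05e-12). Its embryo level stayed below its seed coat level in every mutant lot.

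UGT71B6 (AT3G21780), a glucosyltransferase that conjugates abscisic acid, held 0.336, 0.323 and 0.338 CPM in the embryo of Col-0, 4.76, 4.38 and 4.37 CPM in mutant embryo, 24.2, 22.9 and 28.9 CPM in Col-0 seed coat and 33.8, 31.5 and 25.5 CPM in mutant seed coat. The seed coat groups overlapped, and the embryo effect of 3.73 gave a difference of -3.47 ± 0.13 (adjusted p = 2.34e-07). With only 19 reads over the Col-0 embryo libraries, this SE can be too small. HSP70 (AT3G12580), a cytosolic Hsp70 chaperone, held 1131, 1403 and 1079 CPM in the embryo of Col-0, 2729.5, 2617 and 2719.9 CPM in mutant embryo, 2556, 3072.2 and 2282 CPM in Col-0 seed coat and 2313, 2093 and 2463 CPM in mutant seed coat. Mutant embryo reached the range of the seed coat libraries, which overlapped with each other, and the difference was -1.36 ± 0.06 (adjusted p = 5.15e-07). With total reads as library size its seed coat effect was called lower (-0.50, adjusted p = 0.00416), which makes it opposite. The seed coat effect of UGT71B6 was called higher without Col-0 replicate 3 or without mutant replicate 3.

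Genes that were lower in the mutant embryo alone included F3H (AT3G51240), the flavanone 3-hydroxylase of flavonoid synthesis. It held 3.17, 5.76 and 6.09 CPM in the embryo of Col-0, 0.168, 0.531 and 0.354 CPM in mutant embryo, 7.93, 12.5 and 13.9 CPM in Col-0 seed coat and 6.55, 7.49 and 9.06 CPM in mutant seed coat. The embryo groups were separate and the seed coat groups overlapped, with effects of -3.83 and -0.56 and a difference of 3.25 ± 0.29 (adjusted p = 7.34e-06). CNX1 (AT5G61790), the endoplasmic reticulum chaperone calnexin, held 29.5, 30.03 and 27.7 CPM in the embryo of Col-0, 10.3, 14.8 and 12.04 CPM in mutant embryo, 15.7, 13.2 and 14.5 CPM in Col-0 seed coat and 12.5, 19.3 and 16.4 CPM in mutant seed coat. Only its Col-0 embryo libraries stood apart from the rest, and the difference was 1.38 ± 0.10 (adjusted p = 1.1e-05). KAT3 (AT4G32650), a regulatory subunit of potassium channels, fell from 48.0, 51.4 and 54.2 CPM in Col-0 embryo to 15.9, 21.7 and 19.7 CPM in mutant embryo. Its seed coat libraries held 96.9 to 128 CPM over both genotypes, and the difference was 1.2 ± 0.08. With total reads as library size the seed coat effects of KAT3 (-0.51, adjusted p = 0.00754) and F3H (-0.85, adjusted p = 0.0176) were called lower as well, as they were without mutant replicate 2 for KAT3 (-0.33) and without Col-0 replicate 1 for F3H (-0.76).

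Among the 763 genes with a called effect in the seed coat alone, 243 were higher in the mutant (median seed coat effect 0.99, embryo 0.02) and 520 lower (-0.67 and -0.06). OST1 (AT4G33950), the SnRK2 protein kinase that carries the abscisic acid signal from receptors to transcription factors, held 24.8, 15.01 and 25.8 CPM in Col-0 embryo, against 22.9, 29.6 and 27.3 CPM in mutant embryo. Levels in seed coat were 12.7, 7.02 and 14.2 CPM in Col-0 and 74.4, 74.9 and 84.6 CPM in the mutant. The embryo groups overlapped, and every mutant seed coat library lay above all 9 others. Its effects were 0.28 and 2.79, a difference of 2.52 ± 0.13 (adjusted p = 9.77e-09).

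FRO3 (AT1G23020), a ferric chelate reductase, held 29.8, 23.2 and 13.97 CPM in the embryo of Col-0, 18.4, 16.1 and 17.7 CPM in mutant embryo, 5.20, 5.96 and 2.72 CPM in Col-0 seed coat and 27.6, 33.6 and 25.8 CPM in mutant seed coat. The Col-0 seed coat libraries were the lowest of the 12, and the difference was 3.00 ± 0.23 (adjusted p = 5.22e-08). Its embryo effect of -0.36 was called lower with total reads as library size and without Col-0 replicate 3. ACR7 (AT4G22780), an ACT domain repeat protein, held 25.5, 19.4 and 21.8 CPM in the embryo of Col-0, 13.8, 13.2 and 18.9 CPM in mutant embryo, 32.9, 24.9 and 40.9 CPM in Col-0 seed coat and 129, 109.9 and 175 CPM in mutant seed coat. Its difference was 2.63 ± 0.19 (adjusted p = 1.09e-08), and its embryo effect of -0.54 lay at the threshold (adjusted p = 0.054), and it was called lower by limma (adjusted p = 0.0416), by DESeq2 (0.0241), with relative log expression scaling (0.0425), total reads (0.0029), no low count filter (0.0299) or scaling without EPR1 (0.0347), and without Col-0 replicate 2 or mutant replicate 3. The embryo groups did not overlap, so under those settings ACR7 falls among the opposite genes.

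Genes lower in the mutant seed coat alone included the nitrate transporter NRT2.5 (AT1G12940). It held 7.53, 7.53 and 9.30 CPM in the embryo of Col-0, 9.41, 8.50 and 8.62 CPM in mutant embryo, 67.1, 58.0 and 59.5 CPM in Col-0 seed coat and 23.2, 25.6 and 23.2 CPM in mutant seed coat. The embryo groups overlapped at a low level and the seed coat groups were separate, with a difference of -1.49 ± 0.16. GAPCP-1 (AT1G79530), a plastid glyceraldehyde-3-phosphate dehydrogenase, held 45.8, 44.5 and 44.3 CPM in the embryo of Col-0, 44.1, 37.4 and 44.9 CPM in mutant embryo, 23.1, 26.3 and 26.5 CPM in Col-0 seed coat and 9.35, 7.76 and 9.57 CPM in mutant seed coat. Its seed coat effect was -1.51 and the difference -1.41 ± 0.08. With total reads as library size its embryo effect was called lower as well (-0.45, adjusted p = 0.000833). BETA-OHASE 1 (AT4G25700), a carotene hydroxylase, had group means of 23.1 and 28.4 CPM in Col-0 and mutant embryo and 59.1 and 28.3 CPM in Col-0 and mutant seed coat, a difference of -1.37 ± 0.15. Its embryo effect was called higher without mutant replicate 2 (0.40, adjusted p = 0.0256).

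**Figure D3:**
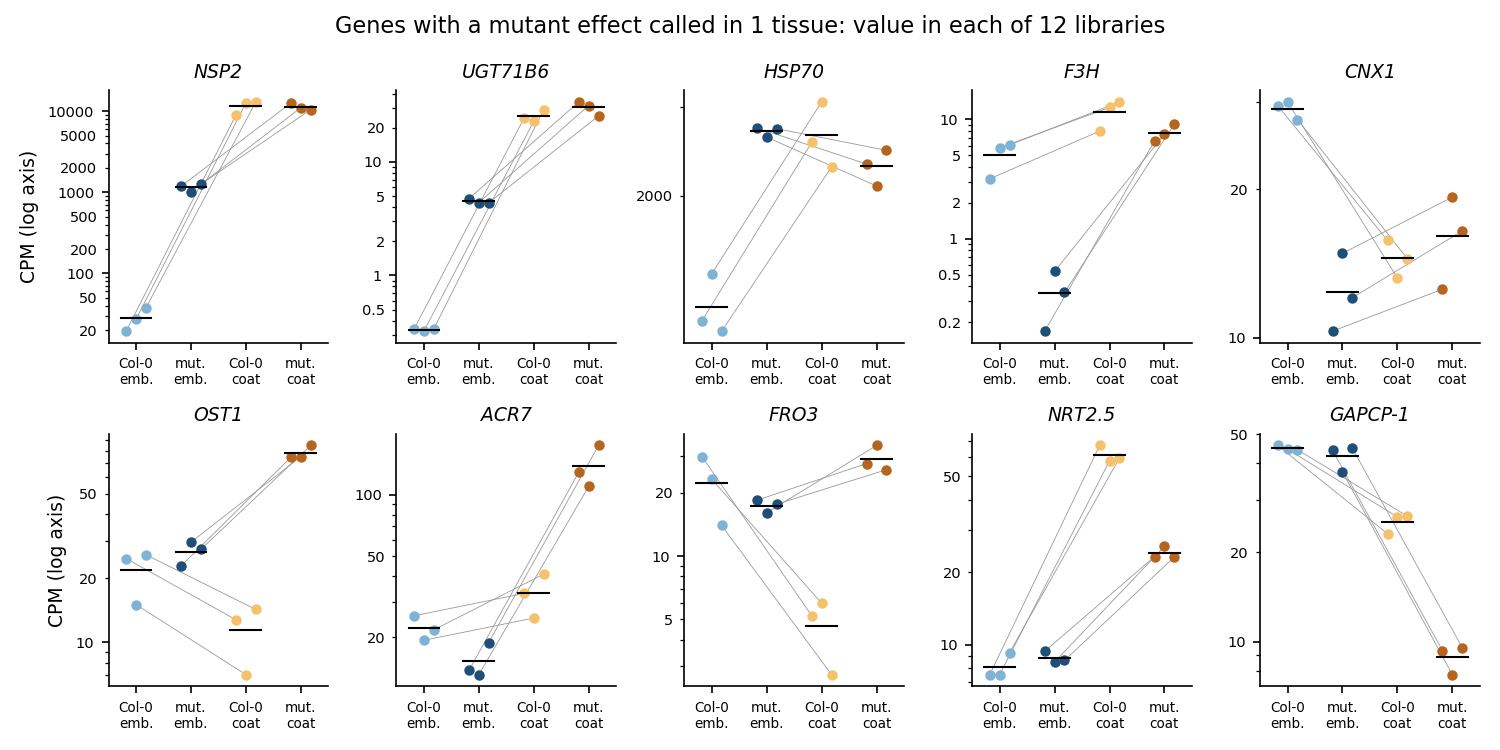
CPM on a log axis in each of the 12 libraries for 10 genes whose mutant effect was called in 1 tissue, with libraries on the horizontal axis grouped by genotype and tissue. Points are libraries, grey lines join the tissues of 1 seed lot and black bars are group means. NSP2, UGT71B6, HSP70, F3H and CNX1 separate by genotype in embryo, while OST1, ACR7, FRO3, NRT2.5 and GAPCP-1 separate in seed coat.

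Where both tissues moved the same way, 334 genes were raised more in embryo, 252 were raised more in seed coat, 51 were lowered more in embryo and 271 were lowered more in seed coat. CYP78A6 (AT2G46660), a cytochrome P450 known to promote seed growth, held 12.4, 18.6 and 27.0 CPM in Col-0 embryo, against 153, 107 and 130.4 CPM in mutant embryo. Its seed coat levels were 0.733, 1.43 and 4.71 CPM in Col-0 and 137, 104 and 178 CPM in the mutant. The mutant libraries of the tissues lay in one range, whereas in Col-0 the embryo was above the seed coat, and the difference was 3.31 ± 0.46. EEL (AT2G41070), a bZIP factor of late embryogenesis, rose more in the seed coat too, from 11, 15.7 and 12.8 CPM to 58.9, 51.6 and 55.4 CPM, against 80.6, 97.9 and 80.4 CPM to 125, 105 and 110.4 CPM in the embryo, a difference of 1.69 ± 0.08. Its embryo effect of 0.40 was not called with total reads as library size (0.04, adjusted p = 0.762) or without Col-0 replicate 1, Col-0 replicate 3, mutant replicate 1 or mutant replicate 3 (adjusted p from 0.0847 to 0.154).

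Of the genes named for unequal falls, NRT1.7 (AT1G69870), a nitrate transporter, fell from 586, 476 and 516 CPM to 69.6, 75.3 and 65.3 CPM in the seed coat. In the embryo it went from 91.1, 65.5 and 69.8 CPM to 40.9, 41.8 and 35.9 CPM, a difference of -1.98 ± 0.07. UGT75B1 (AT1G05560), a UDP-glucosyltransferase, fell by 4.24 in the seed coat and by 1.28 in the embryo (log2), and its difference was -3.00 ± 0.23. GSTF3 (AT2G02930), a glutathione transferase, and PMT5 (AT3G18830), a polyol and monosaccharide transporter, fell more in the embryo. GSTF3 went from a mean of 194 to 22.4 CPM in embryo and from 972 to 541 CPM in seed coat, and the differences were 2.26 ± 0.12 for GSTF3 and 1.69 ± 0.15 for PMT5.

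LEA genes, whose products protect cells during drying, mostly rose in both mutant tissues and more in the embryo. Of 34 listed members 31 were tested, and 3 were called positive and 17 negative in the difference (5.14% and 10.7% of all genes), with a median of -0.53, or -0.43 with groups of few reads set at a floor of 3 reads per library. In the embryo 27 were higher and 1 lower, and in the seed coat 24 were higher and 2 lower. Without the seed lot block, 1 was called positive and 5 negative. LEA7 (AT1G52690) held 358, 447 and 515 CPM in Col-0 embryo, against 5336, 4370.1 and 5128 CPM in mutant embryo. Its seed coat libraries held 4812, 5461 and 5161 CPM in Col-0 and 11662, 10055 and 10877 CPM in the mutant. Col-0 embryo stood well below the other groups, mutant embryo overlapped with Col-0 seed coat, and the difference was -2.42 ± 0.13 (adjusted p = 7.36e-09).

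LTI78 (AT5G52310), a cold and drought responsive protein, had Col-0 embryo lowest too, but mutant embryo highest, with means of 28.9 CPM in the embryo of Col-0, 233 CPM in mutant embryo, 109 CPM in Col-0 seed coat and 188 CPM in mutant seed coat. Its mutant embryo libraries lay above those of Col-0 seed coat without overlap, and the difference was -2.25 ± 0.10 (adjusted p = 6.59e-09). EM1 and EM6, group 1 LEA proteins, had a called effect in the seed coat alone, where both were lower in the mutant (-1.34 and -0.44, against -0.07 and 0.19 in embryo), and the differences were -1.3 and -0.65. HIRD11, a dehydrin-type protein, went the other way, with 214 reads over the Col-0 embryo libraries, 13 over the mutant embryo libraries, 146 over Col-0 seed coat and 131 over mutant seed coat (3.83 ± 0.25, adjusted p = 1.02e-05). ERD10, another dehydrin, had 0 reads over the Col-0 embryo libraries, 17825 over mutant embryo, 45 over Col-0 seed coat and 27299 over mutant seed coat.

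The promoter of LEA7 is shown for the abscisic acid response element core (ACGTG, both strands, overlaps counted), in capitals, which bZIP factors of abscisic acid signalling are known to bind. It lies on the plus strand at chr1:19619474-19619723 (TAIR10.1).
LEA7: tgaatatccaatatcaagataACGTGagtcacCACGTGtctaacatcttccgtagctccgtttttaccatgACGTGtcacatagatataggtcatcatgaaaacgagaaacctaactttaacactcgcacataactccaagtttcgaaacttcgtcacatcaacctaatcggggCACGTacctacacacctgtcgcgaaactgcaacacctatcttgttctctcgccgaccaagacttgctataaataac
The core was found in 25 of 31 tested LEA promoters (80.6%), against 22.9% of all promoters and 23.9% of those of tested genes. By class it was found in 45.0% of promoters of genes raised in both tissues but more in embryo and in 39.6% of those raised more in seed coat, so both classes lay above the share of all tested genes.

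Heat shock genes, most of which encode chaperones that accumulate in maturing seeds as well as under heat, were tested for all 24 members of their list. The coactivator MBF1C and the genes ROF1, ROF2 and BAG6 are kept in the same list, so its counts and sum are not of heat shock proteins alone. The difference was called negative for 17 and positive for 0 (10.7% and 5.14% of all genes), with a median of -0.46. By limma 12 were negative and by DESeq2 13, each with 0 positive, and by edgeR 2 positive members had an unadjusted p under 0.05. In the embryo 14 were higher and 3 lower, and in the seed coat 5 were higher and 5 lower. Their sum ran from 14167 to 17073 CPM in the embryo of Col-0, 24744 to 27606 CPM in mutant embryo, 15193 to 18965 CPM in Col-0 seed coat and 16586 to 19826 CPM in mutant seed coat. Mutant embryo was therefore the group that stood apart, and the seed coat groups overlapped. With total reads as library size 13 were called negative and 0 positive, and the tissue counts became 10 higher and 5 lower in embryo and 3 higher and 13 lower in seed coat. Without the seed lot block 6 were called negative and 0 positive.

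AT1G53540, a class I small heat shock protein, held 148, 171 and 179.7 CPM in Col-0 embryo, against 395, 420.0 and 442 CPM in mutant embryo. Seed coat libraries held 431, 469 and 373 CPM in Col-0 and 296, 312 and 313 CPM in the mutant. The mutant was higher in every embryo library and lower in every seed coat library, with effects of 1.33 and -0.47 and a difference of -1.80 ± 0.15 (adjusted p = 1.35e-07). AT2G29500, of the same class, had means of 197 CPM in the embryo of Col-0, 419 CPM in mutant embryo, 303 CPM in Col-0 seed coat and 254 CPM in mutant seed coat (-1.34 ± 0.09). Class I small heat shock genes are close paralogs. Reads that match more than 1 of them count as multimapping and are left out, so the single values and the sum are less certain. MBF1C, a coactivator of the heat response, differed by -1.56 with effects of 0.95 in embryo and -0.60 in seed coat. HSP101 and HSP90.1, chaperones of disaggregation and folding, each differed by -0.84. HSP17.6II was lower in both mutant tissues, more in the seed coat (-0.55 and -1.41).

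The upstream sequence of AT1G53540 is shown because heat shock factors are known to bind the heat shock element, searched here as GAANNTTC on both strands and set in capitals. It lies on the plus strand at chr1:19980049-19980298 (TAIR10.1).
AT1G53540: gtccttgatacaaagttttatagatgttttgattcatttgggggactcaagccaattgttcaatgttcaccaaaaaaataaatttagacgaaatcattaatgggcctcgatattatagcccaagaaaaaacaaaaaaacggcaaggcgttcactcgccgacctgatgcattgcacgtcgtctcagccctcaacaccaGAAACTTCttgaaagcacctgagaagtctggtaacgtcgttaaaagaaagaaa
The letters were found in 5 of 24 heat shock promoters (20.8%), against 9.55% of all promoters and 9.38% of those of tested genes, and in 9.80% and 8.96% of genes with positive and negative differences. A window without the match says nothing of the factors themselves.

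Heat shock factor genes had 13 of 15 members tested, with 0 positive and 6 negative differences (5.14% and 10.7% of all genes) and a median of -0.56. The list was split, however, with 6 of the 13 values above 0 (up to 0.32), so the median does not describe a shift of the whole list. By limma 4 were negative and by DESeq2 5, each with 0 positive, and by edgeR 1 positive member had an unadjusted p under 0.05. HSFB2B differed by -1.08 ± 0.13, DREB2A, a drought and heat responsive regulator kept in the same list, by -0.94 ± 0.16, HSFA2 by -0.82 and HSFA9, the seed-specific factor, by -0.69. HSFA9 was higher in both mutant tissues (1.61 in embryo and 0.97 in seed coat), whereas HSFA2 was called in neither alone. Without the seed lot block 0 members of this list were called, so these calls rest on pairing the tissues of a lot.

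Genes of oil breakdown, which turn stored lipid into sugar through peroxisomal beta-oxidation and the glyoxylate cycle, had 19 of 20 members tested, and 10 were called negative and 0 positive (10.7% and 5.14% of all genes). The median difference was -0.40, and 0 of the 19 had a value above 0. By limma 9 were called negative, by DESeq2 7 and without the seed lot block 5. In the seed coat 1 was higher and 15 lower in the mutant, and in the embryo 2 were higher and 11 lower. PED1, a peroxisomal thiolase, held 816, 860.3 and 767 CPM in Col-0 embryo, against 766, 648 and 714 CPM in mutant embryo. Levels in seed coat were 1661, 1610.2 and 1530.3 CPM in Col-0 and 797, 765 and 785 CPM in the mutant. The tissues differed widely in Col-0 and little in the mutant, and the difference was -0.83 ± 0.06. MFP2, a multifunctional beta-oxidation protein, fell in both tissues, from 714 to 275 CPM in embryo and from 583 to 140.2 CPM in seed coat by group means, a difference of -0.68 ± 0.05. ACO3, an aconitase, differed by -0.83 ± 0.05, and MLS, the malate synthase, by -0.59. AIM1, also of beta-oxidation, was higher in both mutant tissues and more so in the embryo (-0.49).

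The neighbouring lipid lists held calls in both directions. Of 16 tested genes of oil synthesis 1 was called positive, SSI2, a stearoyl desaturase (0.64), and 1 negative, FAD2, an oleate desaturase (-0.74, not called without mutant replicate 1). Their called share of 12.5% was near the 15.9% of all genes. Of 12 tested oil body genes 11 were higher in each mutant tissue, against 25.4% of all genes in embryo and 24.8% in seed coat. In the difference 2 were called positive and 2 negative (33.3% called, against 15.9% of all genes). ATS1, a caleosin, differed by 0.91 ± 0.09. OLEO1, an oleosin, rose by 1.42 in embryo and 1.59 in seed coat, and its difference of 0.16 was not called.

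**Figure D4:**
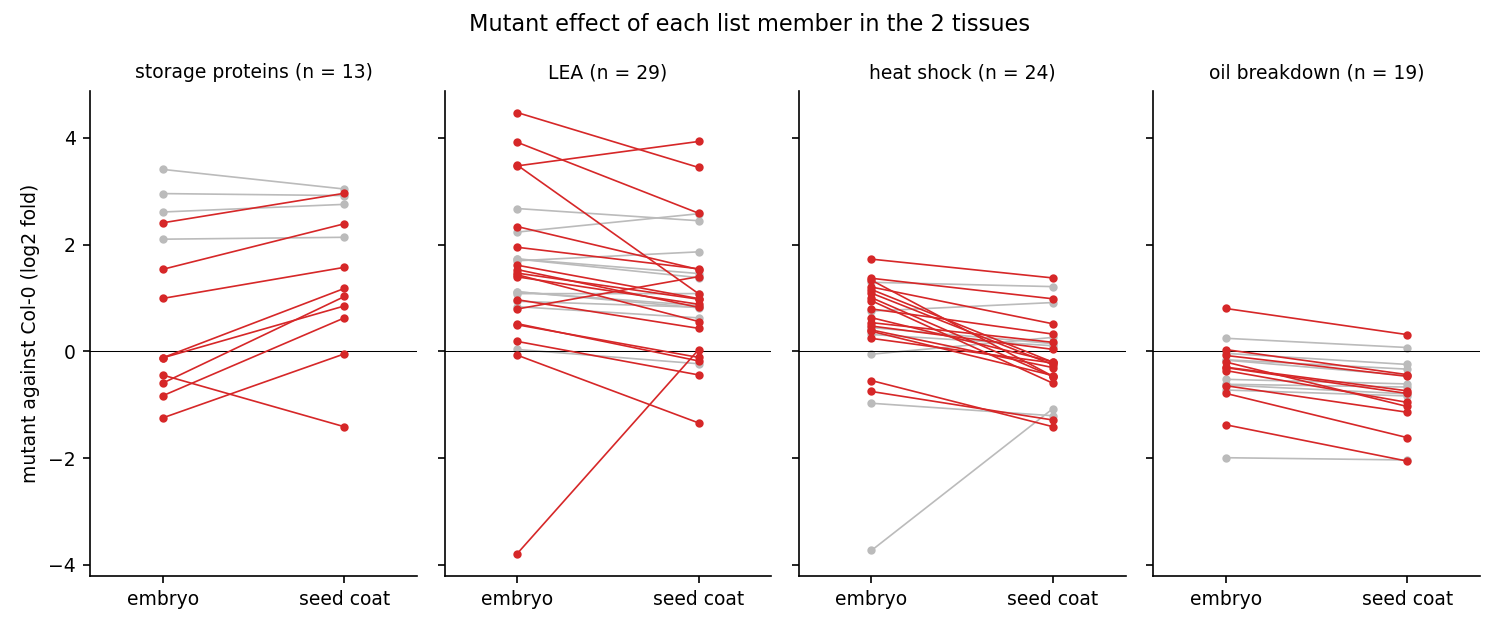
Mutant effect (vertical axis, log2 fold) in embryo and in seed coat for each member of 4 gene lists, with 1 line per gene and red where the difference between tissues was called. Lines for storage proteins mostly rise from embryo to seed coat, and those for LEA, heat shock and oil breakdown genes mostly fall. Of the LEA list 29 members with more than 3 reads in every group are drawn.

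In the list of abscisic acid metabolism 15 of 17 genes were tested, with 2 positive and 3 negative differences and a median of 0.01, and 33.3% of them were called against 15.9% of all genes. CYP707A2, the hydroxylase that breaks down abscisic acid in seeds, had means of 45.1 CPM in the embryo of Col-0, 104 CPM in mutant embryo, 101 CPM in Col-0 seed coat and 71.5 CPM in mutant seed coat, so that the higher tissue in Col-0 was the lower one in the mutant (-1.69 ± 0.21). NCED6, a synthesis enzyme known from endosperm, rose from 0.708 to 20.8 CPM in embryo and from 2.12 to 12.7 CPM in seed coat (-2.30 ± 0.05), and NCED9 differed by 1.04. The third negative member was UGT71B6, described above.

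In the signalling list 25 of 26 genes were tested, with 4 positive and 8 negative differences (5.14% and 10.7% of all genes) and a median of -0.26. OST1 was the most positive call. Without the seed lot block 2 were called positive and 3 negative. Among the receptors, PYL11 (2.07), PYL2 (1.43) and PYR1 (0.81) were called positive and PYL12 (-1.67), PYL13 (-1.28), PYL9 (-0.65) and PYL7 (-0.50) negative. PYL3 was also called negative, with 2 reads over the Col-0 embryo libraries, 139 over mutant embryo, 20 over Col-0 seed coat and 181 over mutant seed coat. PYL11 had 6 reads over the mutant embryo libraries. PYL2 rose more in the seed coat (1.86 against 0.44 in embryo), and PYR1 fell less there (-1.22 against -2.03). The phosphatases AHG1, ABI2 and AHG3, which hold the pathway off, differed by -0.68, -0.44 and -0.38, and AHG1 rose in both tissues (1.98 in embryo and 1.32 in seed coat).

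Among regulators of maturation 18 of 23 were tested, with 2 positive and 2 negative differences, a called share of 22.2% near the 15.9% of all genes. FUS3, a B3 master regulator of maturation, rose from a mean of 2.58 to 23.9 CPM in embryo and from 35.5 to 105 CPM in seed coat, a difference of -1.65 ± 0.32. BBM, an AP2 factor of embryo growth, went from 8.31 to 31.4 CPM in embryo and from 0.196 to 3.24 CPM in seed coat (2.16 ± 0.64), where Col-0 had 7 reads in all. ABF2, a bZIP factor of abscisic acid responses, differed by -1.06, and EEL is described above. Dormancy and germination genes had 19 of 21 members tested, with 4 positive and 3 negative differences (36.8% called) and a median of 0.05. TCP14, a growth regulator of the germinating embryo, rose from 19.6 to 32.5 CPM in embryo and from 1.21 to 9.43 CPM in seed coat (2.2 ± 0.15). DOG1, the dormancy regulator, rose in both tissues and more in the seed coat by 0.79 ± 0.09. MFT, a phosphatidylethanolamine-binding protein of seed dormancy, was called in embryo alone and differed by -0.71. Of 12 tested repressors 3 were called (25%). VAL3, of the B3 family that shuts down the embryonic programme, differed by 2.94, DRIP2, a ubiquitin ligase of drought responses, by -1.41 and TFL2, a chromodomain protein, by -0.45.

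**Figure D5:**
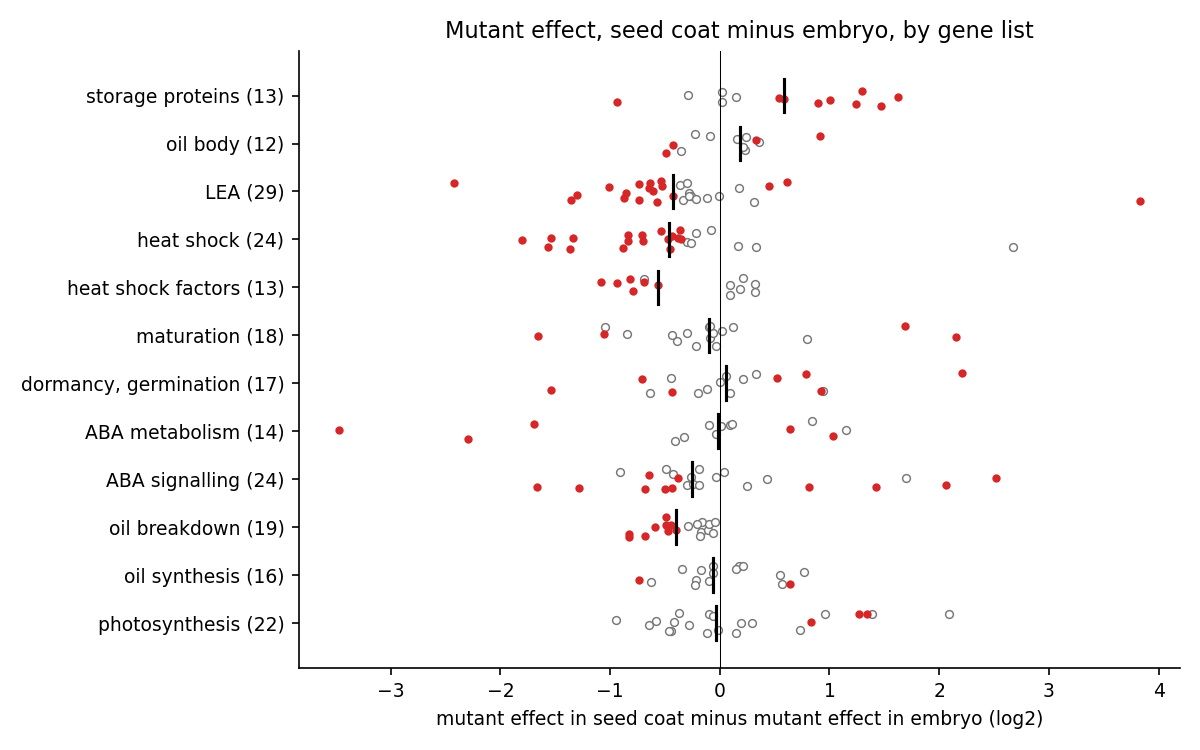
Mutant effect in seed coat minus mutant effect in embryo (horizontal axis, log2) for members of 12 gene lists with more than 3 reads in every group, with the number drawn in brackets. Each point is a gene, red where called, and bars are medians of the points drawn. Storage proteins lie mostly right of 0, while LEA, heat shock and oil breakdown genes lie mostly left of it.

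The remaining lists, markers aside, held few called genes each, with called shares from 6.25% for gibberellin to 33.3% for jasmonate genes beside the 15.9% of all genes. Photosynthesis genes had 3 positive and 0 negative calls among 23 tested, led by RCA, the Rubisco activase, which rose from 7.81 to 143 CPM in embryo and from 3.70 to 172 CPM in seed coat (1.34 ± 0.15). RBCS1A, a Rubisco small subunit, fell by 0.68 in embryo and rose by 0.58 in seed coat. Gibberellin genes had 0 positive and 1 negative call among 16 tested, jasmonate genes 3 and 3 among 18, clock genes 1 and 2 among 14, cell wall mannanases, expansins and xyloglucan enzymes 0 and 2 among 8, flavonoid genes 3 and 0 among 11, and cuticle genes 1 and 0 among 9. Several of these single calls were lost without the seed lot block, among them GA2OX6, AOC3, JAZ7, JAZ1, PRR5, ELF4, LHY, MAN7, MAN6, CHS, F3'H, PETC and ABCG11. Embryo markers had 1 positive and 1 negative call among 14 tested, endosperm markers 0 among 2, and outer seed coat markers 3 positive calls among 9, which were SBT1.7 (0.93), GATL5 (2.62, with 7 reads over the Col-0 seed coat libraries and no call without the seed lot block) and GL2 (2.79). SBT1.7, a subtilisin-like protease of seed coat mucilage, was called in the embryo alone (-1.05, with -0.10 in seed coat). These outer coat markers are the genes whose sum was lowest in mutant embryo.

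The same difference can be read as a change in the contrast between tissues. Of the 2579 called genes, 1026 differed between seed coat and embryo in Col-0 alone, 712 of them higher in seed coat and 314 higher in embryo. A further 472 differed between tissues in the mutant alone, 203 higher in seed coat and 269 higher in embryo. In 235 genes both genotypes had a called tissue difference of opposite direction, in 588 the direction was shared and the difference larger in Col-0, in 243 it was shared and larger in the mutant, and 15 were called in neither. PED1, TGA10 and PAP85 are examples in which the tissues lay closer together in the mutant. XTH11 is one in which they lay farther apart.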

How the data were processed

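RNA was sequenced as stranded poly(A) libraries from 12 samples. The authors deposited a table of whole-number read counts per gene for the 12 libraries, and per-library count files from the aligner; the table equals the reverse-strand column of those files at every gene (0 values differing). Per the submitters' processing notes the tools were bcl2fastq 2.19, fastp 0.12.4 and STAR 2.7.9a, with the genome build TAIR10; whether duplicate reads were removed is not stated there. Counts are gene reads between 10301817 and 17619031 per library, and 4 summary entries per file that name no gene were left out of library sizes and tests; per library they held 1.95% to 7.91% unmapped and 2.61% to 4.36% multimapping reads.

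Genes were kept with edgeR's filterByExpr (minimum count 10, minimum total 15), leaving 16238 of 32833. Libraries were scaled by TMM, and CPM uses that scaled library size. The difference between tissues was fitted in edgeR 4.0.16 (R 4.3.3) by quasi-likelihood with the 6 seed lots as a block and a tissue term per genotype. The mutant effect in each tissue came from a fit of the 4 group means. P-values were adjusted by Benjamini-Hochberg over all genes and called under 0.05. The SE is from lot ratios of log2 CPM with a prior count of 2, while the difference it stands beside is from the fit. A prior count draws ratios towards 0 where a group has few reads, so there the SE can understate the uncertainty of the difference. That embryo and seed coat of 1 number share a seed lot is taken from the replicate numbers in the labels. Deviations from the group means of same-numbered libraries correlated at 0.401, 0.456 and 0.274 in Col-0 and at 0.403, 0.507 and 0.162 in the mutant. Among differently numbered pairs, mutant embryo 3 with seed coat 1 reached 0.225, above the value for its own number, mutant embryo 1 with seed coat 3 reached 0.117, and the other 10 were below 0. Deviations within a group sum to 0, so positive values for same-numbered pairs push the other pairs below 0. The sign of those pairs is therefore no separate evidence for the pairing. The biological coefficient of variation was 0.0857 with the block and 0.166 without it. Replicates are separate samples in the labels, with nothing said of separate plants, so p-values measure the spread between these samples.

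A gene's class follows the calls in each tissue. The named genes carry a symbol, reach a mean of 5 CPM in 1 group or more and have separate genotypes in 1 tissue or both: the 5 smallest p-values in each opposite class, 3 per direction in each class of 1 tissue and 2 in each class of shared direction, with up to 3 called members per list and the DIG2 relatives. Other list members described were picked after their values were seen. The lists and the comparison were chosen with earlier results of these data known. Promoters are 250 bases before the start in the RefSeq annotation of TAIR10.1, for 15739 of the tested genes. Alternatives were DESeq2 1.42.0, limma 3.58.1 (voom, lot as a random effect, correlation 0.331), other scalings, no filter, unstranded counts, no block, a threshold of 0.01 and leaving out each lot. Scaling without EPR1 was added after seeing the data. The edgeR steps were tested on simulated data with 50 genes changed at each size. They recovered 22% of genes changed 1.5-fold, 74% at 2-fold and 82% at 8-fold, and 2.27% of the 132 calls were false. Small differences can thus be missed. Figures were drawn with matplotlib 3.10.9.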

Additional observations from a re-analysis of the deposited data

Results flagged for a closer look

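Every value here is a tested difference of the mutant effect between seed coat and embryo, and each was picked out because that difference itself passed the test. The counts were 2579 genes in all, 835 with a positive and 1744 with a negative difference. By class they were 92 with opposite effects, 563 with an effect called in embryo alone, 763 in seed coat alone, 385 moving the same way but more in embryo, 523 more in seed coat and 253 called in neither tissue. Groups of 3 libraries were not searched for single outlying samples.

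Among the named genes with opposite effects, the differences (log2) were 3.66 for XTH11, 2.72 for OPT6, 1.62 for PAP85, 2.47 for BGLU44 and 1.47 for SESA5 where the mutant was higher in seed coat. Where it was higher in embryo they were -2.89 for BRU6, -1.46 for TGA10, -1.22 for Fes1A, -1.05 for CYP71B10 and -1.58 for UGT85A2. For effects called in embryo alone they were -5.40 for NSP2, -3.47 for UGT71B6, -1.36 for HSP70, 1.2 for KAT3, 3.25 for F3H and 1.38 for CNX1. For effects called in seed coat alone they were 2.52 for OST1, 2.63 for ACR7, 3.00 for FRO3, -1.41 for GAPCP-1, -1.37 for BETA-OHASE 1 and -1.49 for NRT2.5. For shared directions they were -2.25 for LTI78, -2.42 for LEA7, 1.69 for EEL, 3.31 for CYP78A6, 2.26 for GSTF3, 1.69 for PMT5, -1.98 for NRT1.7 and -3.00 for UGT75B1. All 30 kept their sign under every alternative that gave them a value; with unstranded counts UGT71B6, F3H and UGT75B1 had none.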

How the results depend on the processing

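Without the replicate block, 932 genes were called (328 positive, 604 negative), with 206 in embryo alone, 259 in seed coat alone, 147 and 228 of shared direction but larger in embryo and in seed coat, and 0 in neither tissue; 931 of the 932 were also called with the pairing. DESeq2 with the block called 1339 (445 positive, 894 negative), with 292, 352, 229, 312 and 78 in those classes. An adjusted p under 0.01 left 1259 (383 positive, 876 negative), with 27 opposite and 306, 378, 162 and 215 in the first 4 classes. The class called in neither tissue held 102 genes by limma and 395 with no low count filter. Leaving out 1 seed lot at a time gave 1533 (without mutant replicate 1) to 2740 calls (without mutant replicate 2), 533 to 1033 positive, 927 to 1707 negative, 44 to 89 opposite, 349 to 689 in embryo alone, 459 to 799 in seed coat alone, 189 to 433 and 284 to 485 of shared direction, and 164 to 245 in neither. The cause of these changes was not tested. Scaling by relative log expression, by total reads, without the genes of 3 lists (storage, oil body, LEA) or without EPR1, and counting without strand kept every total and class count within 1.5 times. Of 84 named genes, none changed sign where it had a value (81 with unstranded counts, all but UGT71B6, F3H and UGT75B1); 21 were not called without the block, 13 by limma, 10 by DESeq2, 11 at 0.01, 2 without strand and 2 to 10 without 1 lot. Genes under the low count filter were not tested.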

Other observations

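Further gene groups were picked after their values were seen and are given without a test of the group, beside 15.9% of all genes called. Of 17 tested protein disulfide isomerases, calnexins and calreticulins, which fold proteins in the endoplasmic reticulum, 7 were called positive and 1 negative, with a median difference of 0.45. PDIL1-2 had means of 20.7 CPM in Col-0 embryo, 13.5 CPM in mutant embryo, 16.0 CPM in Col-0 seed coat and 28.2 CPM in mutant seed coat, a difference of 1.42. BIP2, an Hsp70 of the endoplasmic reticulum, had 18.8, 11, 13.4 and 19.5 CPM in the same order (1.34), and its seed coat effect was not called (0.54). BIP1, another such Hsp70, was instead higher in both mutant tissues, with 26.3, 38.6, 21.0 and 59.6 CPM (0.95). So was the calreticulin CRT1a, with 5.46, 9.65, 3.71 and 12.8 CPM (0.97). Of 4 tested genes matched by an Hsp70 product name, BIP2 among them and BIP1 not, 1 was called positive and 2 negative, with a median of -0.05. That match does not read where in the cell a protein lies. UDP-glycosyltransferases, which attach sugars to hormones and other small molecules, had 6 positive and 26 negative calls among 81 tested and a median of -0.44. Cytochrome P450 genes had 14 positive and 18 negative calls among 93 and a median of 0.03, DnaJ proteins 2 and 12 among 98 (14.3%) and major facilitator and nitrate transporters 3 and 11 among 83 (16.9%). Genes annotated as low-temperature proteins had 0 positive and 10 negative calls among 18 (median -0.44). Ribosomal proteins had 16 positive and 7 negative calls among 309 (7.44%), and proteasome subunits 0 and 2 among 43 (4.65%), both under the share of all genes.

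Some called genes lie side by side. Of 10123 pairs of adjacent tested genes, 218 were both called in the same direction and 84 in opposite directions. Of 3267 tested neighbours of called genes, 13.3% were called in the same direction and 5.14% in the opposite one. Over all genes 5.14% were called positive and 10.7% negative. The 15.9% of all genes called covers both directions and is no match for either neighbour share alone. UGT71B6 and its neighbour AT3G21790 differed by -3.47 and -3.25, AT3G03230 and AT3G03240 by -3.06 and -5.43, and LTI65 and LTI78 by -1.14 and -2.25. AT1G14930 and AT1G14940 differed by -1.96 and -1.92, and both were low in embryo, with means of 26.4 and 0.874 CPM in Col-0 and 107 and 4.30 CPM in the mutant. Neighbours of this kind are often tandem copies, and reads that match more than 1 copy count as multimapping and are left out. What this does to their values was not tested.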
